A study of Mus musculus with 15 samples.

Results

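Genes that store, release and retrieve calcium for the heartbeat were examined in RNA-seq libraries of mouse ventricle at embryonic day 11.5. The 10 genes, found by symbol among the 78317 genes of the deposited counts, were Ryr2, Casq2, Casq1, Trdn, Asph, Hrc, Atp2a2, Pln, Sln and Slc8a1. All 10 were matched, and 9 of them had enough counts to be tested. The 15 libraries came from 2 C57BL/6 lines with loxP sites in Atf4, the gene of a stress-response transcription factor. The groups were 4 libraries labelled cardiomyocyte-specific CDS knockout, 4 labelled CDS control, 4 labelled cardiomyocyte-specific PAS knockout and 3 labelled PAS control. In the CDS line the loxP sites lie around exons 2 and 3 and the polyadenylation signal is kept, whereas in the PAS line they lie around that signal. Deletion was by Xmlc2-Cre, which acts in cardiomyocytes, so it was not aimed at the other cells of the dissected ventricle. The labels name no drug treatment and do not say which alleles, or whether Cre, the controls carried.

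In cardiomyocytes a small entry of calcium through the cell membrane opens ryanodine receptors of the sarcoplasmic reticulum, and the calcium released from this store makes the sarcomeres contract. Relaxation follows when the pump SERCA returns calcium to the store and the sodium-calcium exchanger expels the rest. Inside the store, calsequestrin and the histidine-rich calcium binding protein hold calcium, and triadin and junctin tie them to the release channel. Phospholamban and sarcolipin are micropeptides that sit beside the pump in the membrane and slow it. In the early embryo the store is immature, and calcium crossing the cell membrane is known to carry more of each beat than in the adult.

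The coding sequences of the pair of pump micropeptides are shown because 1 transcript was abundant and the other was at the limit of detection. They were read from GENCODE release 21 transcripts, and the start and stop codons are in capitals. The phospholamban reading frame has 52 codons before the stop (chr10:53343864-53344022, plus strand, GRCm38) and that of sarcolipin has 31 (chr9:53853473-53853568, plus strand, GRCm38).
Pln: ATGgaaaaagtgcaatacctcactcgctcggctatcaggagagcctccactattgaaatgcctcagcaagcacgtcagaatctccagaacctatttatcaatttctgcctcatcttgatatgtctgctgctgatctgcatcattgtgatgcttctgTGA
Sln: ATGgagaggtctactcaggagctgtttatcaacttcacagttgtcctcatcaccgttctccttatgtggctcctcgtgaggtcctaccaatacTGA

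Libraries of the CDS line held 30376847 to 46472141 counts, and those of the PAS line 22623499 to 29315724. Atf4 itself had 39.6 to 48.1 CPM in CDS knockouts, against 112 to 116 CPM in CDS controls, where CPM is the count divided by the scaled library size, in parts per 1e6. It had 259 to 304 CPM in PAS knockouts, against 92.2 to 100.1 CPM in PAS controls, so the targeted gene was higher, not lower, under the PAS knockout label. The log2 change was -1.36 ± 0.05 for CDS and 1.56 ± 0.06 for PAS (SE), with an adjusted p of 1.25e-13 and 4.25e-14 in the edgeR quasi-likelihood test. Every direction given for the PAS line is therefore that of the libraries so labelled. The labels conflict on the source of the RNA, since one protocol names cultured cortical neurons. The sum of 8 cardiomyocyte markers lay between 22623 and 25960 CPM in every library, against 24.4 to 42.0 CPM for 4 neuronal markers. One library stood apart from the rest: CDS knockout 3 differed from the other CDS knockouts by a chi-square per degree of freedom of 50.8 to 64.0, while no other pair of replicates exceeded 13.9. CDS knockout 3 had the lowest cardiomyocyte marker sum of all libraries, 22623 CPM, and the highest sum of 5 erythroid markers, 3958 CPM. CDS knockouts 3 and 4 also held 104 and 156 CPM of 4 liver and yolk sac markers, against 14.2 and 18.4 CPM in CDS knockouts 1 and 2 and at most 35.5 CPM in CDS controls. Nearly all of this sum was Ttr, with 104 and 154 CPM in CDS knockouts 3 and 4. Alb of the same list had 8 counts over all 15 libraries. For the members, values without CDS knockout 3 are given beside the CDS results they move by over 1.5 times or turn in sign.

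Levels were compared between genes as CPM per kb of annotated exon, averaged over the 15 libraries. Atp2a2, which codes for the cardiac SERCA2 pump, led with 309 CPM per kb (range 286 to 325), and 82 of the 20269 genes tested stood higher. Slc8a1, the gene of the sodium-calcium exchanger NCX1, followed with 139 CPM per kb (range 127 to 147). Both were apart from their neighbours in the order, with no overlap of the ranges over libraries. Casq1 at 88.7, Hrc at 81.3 and Pln at 75.5 CPM per kb had overlapping ranges and were not separated. Casq2 came sixth at 34.7 CPM per kb, with a range from 17.5 to 71.5 that overlapped those of both Pln and Ryr2. Ryr2, the release channel, stood at 23.5 CPM per kb (range 20.9 to 26.5). Trdn at 13.6 and Asph at 13.0 CPM per kb overlapped each other, and Sln came last at 0.0961 CPM per kb. Among the groups the order was the same except that Asph stood above Trdn in CDS knockouts and CDS controls.

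The place of Pln in this order depended on the length used. On the gene models of the counts, 1644 of the 2759 exonic bases of Pln (59.6%) lie under exons of Gm47644, a gene model on the opposite strand, and 64.7% are shared with some other gene. In the older GENCODE release 21 all 159 coding bases of Pln lie under Gm47644 exons. The counting was made without strand, so fragments there could not be assigned to either gene alone. Gm47644 itself had 6.91 to 9.91 CPM, against 169 to 248 CPM for Pln. Divided by the unshared bases alone, a scale chosen after seeing the data, Pln reached 214 CPM per kb and the second place, below Atp2a2 at 314 and above Slc8a1 at 141 CPM per kb. The other members share between 0% and 14.7% of their exonic bases with other genes, the highest share being that of Asph, of which 14.3% lies under Clvs1 on the opposite strand. By CPM not divided by length, the order was led by Slc8a1 at 2624, Atp2a2 at 1881 and Ryr2 at 675 CPM.

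Among the channels and the pumps the cardiac isoform was by far the most abundant at this stage, whereas both calsequestrins were present. Ryr2 had 600.3 to 761 CPM, whereas Ryr1, the channel of skeletal muscle, had 0.501 to 1.14 CPM and Ryr3, a widely expressed channel, had 16.2 to 26.5 CPM. Atp2a2 had 1738 to 1979 CPM, whereas Atp2a1, the pump of fast skeletal muscle, had 0.782 to 2.14 CPM and Atp2a3, a pump of non-muscle cells, had 4.77 to 7.06 CPM. The calsequestrins did not follow that pattern. Casq1, best known as the calsequestrin of skeletal muscle, had 115 to 212 CPM and 58.8 to 109 CPM per kb, against 47.8 to 196 CPM and 17.5 to 71.5 CPM per kb for the cardiac gene Casq2. The ratio of Casq1 to Casq2 per kb was above 1 in every library, from 1.07 in PAS knockout 2 to 5.91 in PAS control 2. Its mean was 2.38 ± 0.279 in the 4 CDS knockouts, against 3.18 ± 0.754 in the 4 CDS controls (SD). In the PAS line it was 2.73 ± 1.32 in the 4 knockouts, against 3.49 ± 2.25 in the 3 controls (SD). Defining genes of skeletal muscle were near 0 beside Casq1: over all 15 libraries Myod1 had 3 counts, Myf5 1, Pax7 4, Pax3 6, Myf6 10 and Myog 63. The whole list of 9 skeletal muscle genes summed to 252 to 338 CPM in CDS knockouts, 258 to 405 CPM in CDS controls, 221 to 376 CPM in PAS knockouts and 258 to 401 CPM in PAS controls. Only Acta1 and Tnnt3, which young heart muscle is known to use as well, had enough counts to be tested. On the opposite strand, 156 of the 1951 exonic bases of Casq1 lie under Gm17224, which had 2297 counts over all libraries, against 81738 for Casq1.

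Sln was at the limit of detection. It had 7, 5, 6 and 1 counts in CDS knockouts, against 0, 1, 2 and 2 counts in CDS controls. In PAS knockouts it had 12, 4, 0 and 1 counts, against 0, 1 and 14 counts in PAS controls. The groups overlapped in both lines, and the highest value, 0.614 CPM in PAS control 3, was below 1 CPM. A level of 3 counts, the limit that a count of 0 allows, corresponded to 0.0647 to 0.131 CPM in these libraries, for counting error only. With no filter on low counts Sln could be tested and did not pass in either line (edgeR quasi-likelihood test, adjusted p = 0.897 for the CDS comparison and 1 for that of PAS). The log2 change was 1.73 ± 0.81 for CDS and -0.41 ± 0.73 for PAS (SE), with an unadjusted p of 0.0333 and 0.577 in that test. For PAS controls against CDS controls it was 2.47 ± 0.85 (SE; unadjusted p = 0.00376, adjusted p = 0.263 in that test). PAS control 3 alone held 14 of the 15 counts of its group. Sarcolipin is known in mouse as a pump regulator of atria and skeletal muscle. Genes used as atrial markers were nevertheless present, with Myl7 at 703 to 1209 CPM and Kcnj3 at 17.4 to 27.0 CPM, and Myl7 is known to be expressed throughout the early heart tube. The micropeptides myoregulin and DWORF were as rare as sarcolipin, with at most 0.349 CPM for Mrln and 0.178 CPM for Strit1.

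**Figure D1:**
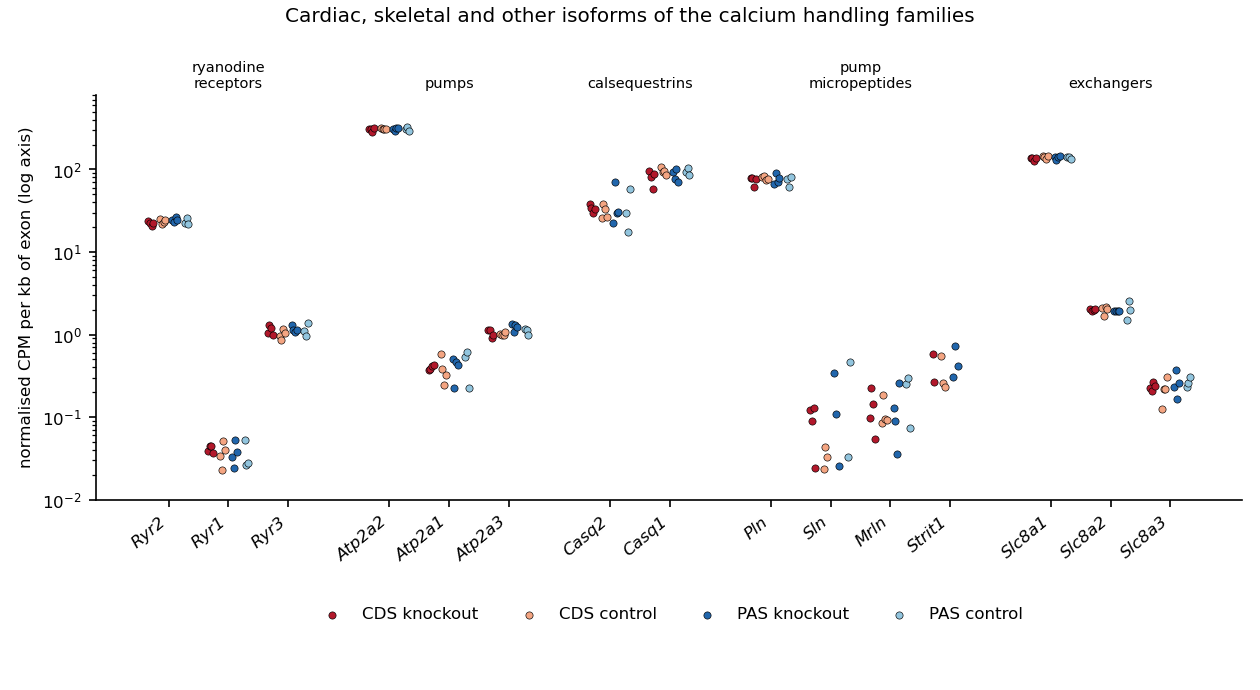
Each point is 1 library, grouped by family and gene along the horizontal axis, with normalised CPM per kb of exon on a logarithmic vertical axis and colours for the 4 groups. Ryr2, Atp2a2, Pln and Slc8a1 stood far above their relatives in every library, whereas Casq1 lay above or beside Casq2; 3 libraries with 0 counts for Sln and 7 for Strit1 cannot be drawn on this axis.

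The first comparison asked whether removal of Atf4 under the CDS label changed these genes. None of the 9 members tested passed the test in CDS knockouts against CDS controls, where 11 of 20269 genes (0.0543%) passed (edgeR quasi-likelihood test, called at a Benjamini-Hochberg adjusted p under 0.05). Of the 9 log2 changes 8 were negative, against 50.6% over all genes, and their median was -0.07, against 0.00 over all genes. The median leaned on 1 library more than this count did. Without CDS knockout 3, 7 of 9 were negative and the median was -0.04. Without CDS knockouts 3 and 4, a choice made after seeing the data, 7 of 9 were negative with a median of -0.045. Without CDS knockout 4 alone, 8 of 9 were negative. The log2 change of Ryr2 was -0.07 with CDS knockout 3 and -0.04 without it, that of Pln was -0.09 with it and -0.01 without it, and that of Atp2a2 was -0.02 with it and 0.01 without it. That of Slc8a1 was -0.07 with it and -0.05 without it. CDS knockout 3 had the lowest value of its group for 8 of the 9 members, all but Asph, and also had the low cardiomyocyte and high erythroid sums given above, whose part in the result was not tested. The 8 cardiomyocyte markers summed to 22623 to 25008 CPM in CDS knockouts, against 24105 to 25876 CPM in CDS controls, and all 8 had a negative log2 change, with a median of -0.05 and none called. The 5 erythroid markers summed to 1438 to 3958 CPM in CDS knockouts, against 1635 to 3502 CPM in CDS controls. In such bulk samples fewer cells of a type and less RNA per cell cannot be told apart.

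Among the genes of the release unit, Ryr2 (chr13:11567988-12121831, minus strand, GRCm39) had 687, 648, 600.3 and 644 CPM in CDS knockouts, against 715, 635, 661 and 695 CPM in CDS controls. The groups overlapped, and the level in knockouts was 0.953 of that in controls, with a 95% interval of the ratio from 0.878 to 1.03. Trdn (chr10:32956550-33352705, plus strand), the gene of triadin, had 118, 118, 107 and 118 CPM in CDS knockouts, against 121, 135, 126 and 122 CPM in CDS controls. All 4 CDS knockouts thus lay below every CDS control. The Asph locus (chr4:9448069-9669344, minus strand) encodes junctin as well as aspartate beta-hydroxylase, and counts per gene do not tell their transcripts apart. Asph had 213, 209, 209.7 and 212 CPM in CDS knockouts, against 215, 219, 217 and 220.0 CPM in CDS controls. Here too the groups did not overlap, although the gap was small, 213 CPM for the highest knockout and 215 CPM for the lowest control. Groups that did not overlap were found for 2.8% of all genes tested, 1.32% with the knockouts lower. Neither gene passed the test: the log2 change was -0.13 ± 0.07 for Trdn and -0.05 ± 0.03 for Asph (SE, n = 4 and 4), with an edgeR quasi-likelihood adjusted p of 1.00 in each case. The ratio of knockouts to controls had a 95% interval from 0.822 to 1.02 for Trdn and from 0.921 to 1.02 for Asph.

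The calcium-binding proteins of the store included the member with the smallest unadjusted p in the main fit. Hrc (chr7:44984714-44988398, plus strand), which codes for the histidine-rich calcium binding protein, had 211, 193, 175 and 199.8 CPM in CDS knockouts, against 232, 237, 207 and 210.4 CPM in CDS controls. Of the 4 CDS knockouts 3 lay below every control, and the fourth, replicate 1, lay among them. The log2 change was -0.19 ± 0.09 (SE, n = 4 and 4), a ratio of 0.878 with a 95% interval from 0.774 to 0.998. It did not pass over all genes (edgeR quasi-likelihood test, unadjusted p = 0.0464, Benjamini-Hochberg adjusted p = 1.00), and 2.62% of all genes had an unadjusted p under 0.05. Without CDS knockout 3 the log2 change of Hrc was -0.14 ± 0.09 (SE), with an unadjusted p of 0.136 in the same edgeR test, and without CDS knockout 4 the unadjusted p was 0.059. In that test it was 0.00922 without PAS control 3, 0.0111 without PAS control 1 and 0.00674 with only the compared groups fitted. The smallest adjusted p of Hrc for CDS under any setting was 0.897. With no filter on low counts the unadjusted p of Trdn, 0.00549 in the edgeR test, was smaller still. Casq1 (chr1:172037461-172047435, minus strand) had 185, 159.6, 115 and 174 CPM in CDS knockouts, against 212, 184, 185 and 167 CPM in CDS controls. The lowest value was again that of CDS knockout 3, and the log2 change, -0.24 ± 0.15 (SE), was not called. Without CDS knockout 3 it was -0.11 ± 0.12 (SE). Casq2 (chr3:101993731-102053830, plus strand) had 105, 94.5, 80.3 and 91.3 CPM in CDS knockouts, against 70.5, 105, 92.1 and 72.8 CPM in CDS controls. It alone among the 9 had a positive log2 change, 0.13 ± 0.39 (SE), with an interval of the ratio from 0.603 to 1.99 that leaves a large change in either direction undetectable.

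The pump and its inhibitor differed little between the groups. Atp2a2 (chr5:122591576-122640288, minus strand) had 1902, 1891, 1738 and 1945 CPM in CDS knockouts, against 1962, 1859, 1892 and 1892 CPM in CDS controls. The groups overlapped, and the ratio of 0.983 had a 95% interval from 0.922 to 1.05. Pln (chr10:53213763-53222083, plus strand) had 219, 215, 171 and 209.6 CPM in CDS knockouts, against 223, 230.4, 204 and 209 CPM in CDS controls, with a ratio of 0.941 and an interval from 0.795 to 1.11. Only CDS knockout 3 lay below the range of the controls. The amount of Pln beside Atp2a2, on the scale of CPM per kb, was 0.240 ± 0.0166 in the 4 CDS knockouts, against 0.251 ± 0.0155 in the 4 CDS controls (SD). The size of this ratio depends on the length used. Per kb of unshared exon, Pln had 209 CPM beside 312 CPM for Atp2a2 in CDS knockouts, and 222 beside 317 CPM in CDS controls. At the cell membrane, Slc8a1 (chr17:81680534-82045806, minus strand) had 2587, 2574, 2394 and 2583 CPM in CDS knockouts, against 2724, 2651, 2523 and 2759 CPM in CDS controls. The groups overlapped through CDS control 3, and the ratio was 0.951 with an interval from 0.893 to 1.01.

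**Figure D2:**
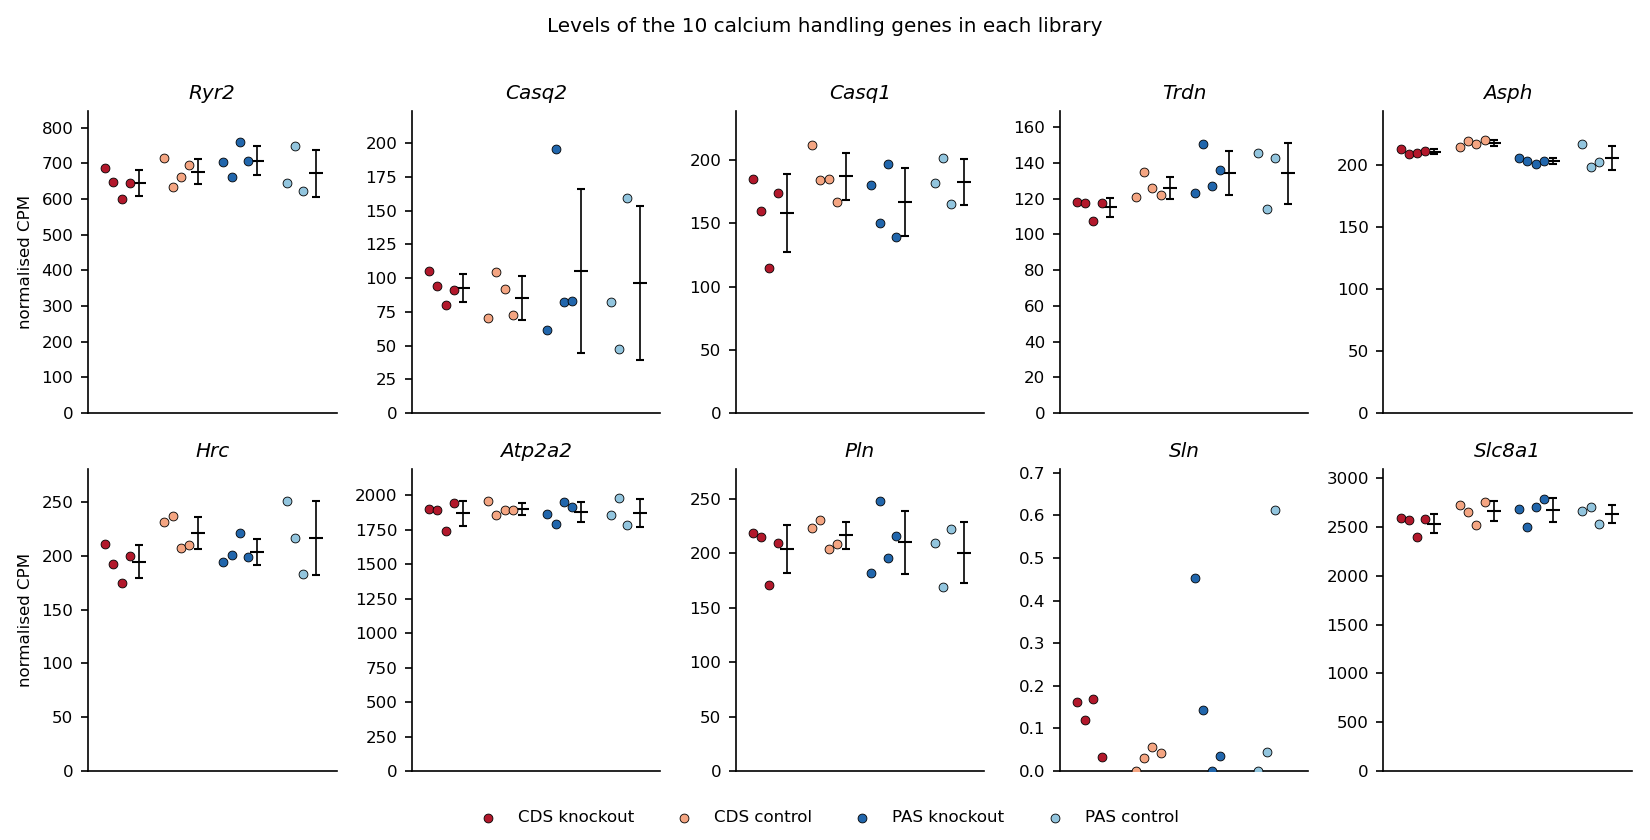
Normalised CPM of each member in each of the 15 libraries, with a panel and a vertical axis from 0 for every gene; points are libraries in the order of their replicate numbers, and the bar beside them is the mean ± SD, left out for Sln. Casq2 spread from 47.8 to 196 CPM within the PAS line, while Asph stayed between 199 and 220.0 CPM in all libraries.

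The same question was then put to the PAS line. None of the 9 members passed in PAS knockouts against PAS controls, where 2 of 20269 genes (0.00987%) passed in the edgeR quasi-likelihood test. Of the 9 log2 changes 3 were negative, against 50.6% over all genes, with a median of 0.01, and no member separated the groups, against 4.59% of all genes. The count of negative changes was 6 without PAS knockout 2, 6 without PAS control 2 and 5 without PAS control 3. Ryr2 had 703, 661, 761 and 705 CPM in PAS knockouts, against 646, 747 and 622 CPM in PAS controls. The ratio was 1.05 with a 95% interval from 0.964 to 1.15. Its log2 change, 0.07 ± 0.06 (SE), was 0.16 without PAS control 2 (edgeR quasi-likelihood test, unadjusted p = 0.0156, adjusted p = 0.825) and 0.02 without PAS control 3. Hrc had 194, 200.4, 221 and 199 CPM in PAS knockouts, against 251, 217 and 183 CPM in PAS controls, so the knockouts lay inside the range of the controls. The change of Hrc was -0.09 ± 0.09 on the log2 scale (SE, n = 4 and 3). It was 0.03 without PAS control 1 and -0.20 without PAS control 3 (edgeR quasi-likelihood test, unadjusted p = 0.0194, adjusted p = 0.583).

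The pump, the exchanger and Asph again had the narrowest intervals. Atp2a2 had 1863, 1789, 1954 and 1915 CPM in PAS knockouts, against 1858, 1979 and 1782 CPM in PAS controls, a ratio of 1.00 with an interval from 0.937 to 1.08. Slc8a1 had 2686, 2496, 2708 and 2785 CPM in PAS knockouts, against 2658, 2703 and 2531 CPM in PAS controls, a ratio of 1.01 with an interval from 0.947 to 1.09. Asph had 206, 203, 200.6 and 203 CPM in PAS knockouts, against 217, 199 and 202 CPM in PAS controls. Its 4 knockout libraries differed by a factor of only 1.03 from lowest to highest, and the ratio to controls was 0.987 with an interval from 0.935 to 1.04. Trdn averaged 134 ± 12.2 CPM in the 4 PAS knockouts, against 134 ± 17.2 CPM in the 3 PAS controls (SD). Pln averaged 210.3 ± 28.9 CPM in the 4 PAS knockouts, against 200.5 ± 28.1 CPM in the 3 PAS controls (SD). The groups of Trdn and of Pln overlapped, and the log2 change of Pln, 0.07, was -0.02 without PAS knockout 2 and -0.04 without PAS control 2. Casq1 averaged 167 ± 26.8 CPM in the 4 PAS knockouts, against 183 ± 18.2 CPM in the 3 PAS controls (SD), a log2 change of -0.14 ± 0.17 (SE) that was not called and was -0.06 without PAS control 2.

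Casq2 could hardly be compared in this line because its replicates differed so widely. It had 61.3, 196, 82.3 and 82.9 CPM in PAS knockouts, against 82.1, 47.8 and 159 CPM in PAS controls. In each group 1 library was far above the others, PAS knockout 2 and PAS control 3. The log2 change was 0.13 ± 0.43 (SE, n = 4 and 3), -0.35 without PAS knockout 2, -0.19 without PAS control 2 and 0.70 without PAS control 3, so its direction rested on single libraries.

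**Figure D3:**
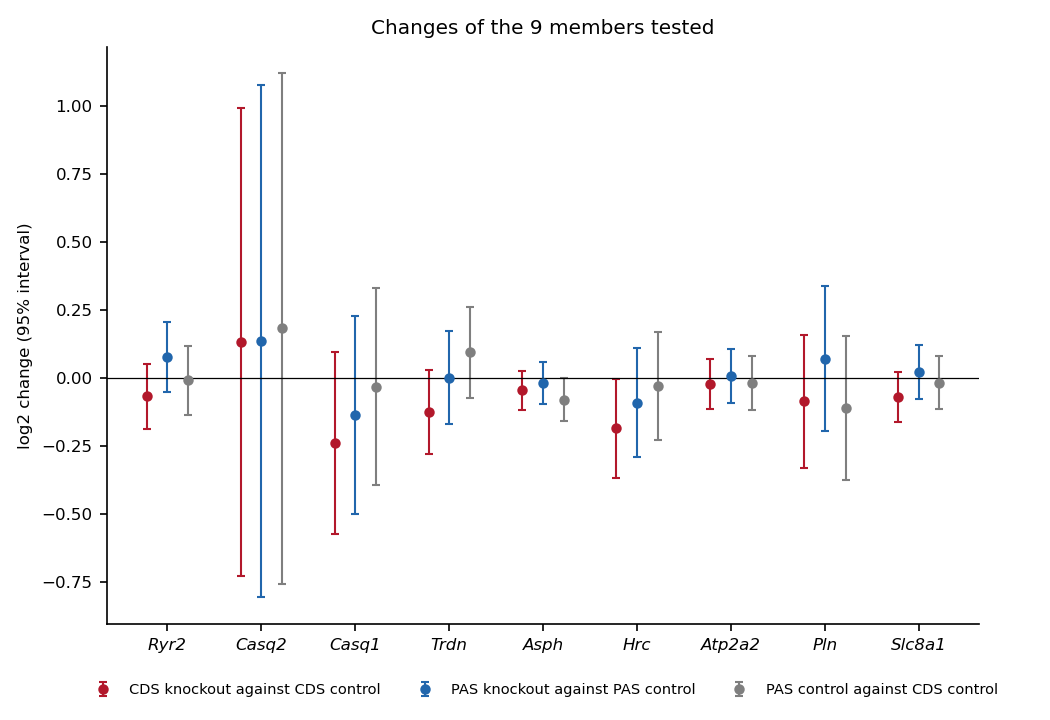
Log2 changes of the 9 members tested, with 95% intervals from edgeR's quasi-likelihood fit, for CDS knockout against CDS control, PAS knockout against PAS control, and PAS control against CDS control. Apart from Hrc in the CDS line and Asph between the controls, every interval includes 0, and those of Casq2 are the widest, from -0.73 to 0.99 for CDS and from -0.81 to 1.08 for PAS.

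The lines were then compared directly. No member passed in the difference between the CDS and the PAS change, where 1 of 20269 genes (0.00493%), Atf4 itself, passed in the edgeR quasi-likelihood test. All 9 differences (CDS change minus PAS change) were negative, from -0.16 for Pln to -0.0042 for Casq2, against 49.9% negative over all genes. Without CDS knockout 3, 6 of 9 were negative, and the differences ran from -0.11 to 0.06. Their median was then -0.05, against -0.10 with that library. The mean of the changes in both lines passed for no member, while 16 genes (0.0789%) passed. Of the 9 means 7 were negative, against 50.5% over all genes, with a median of -0.03. Without CDS knockout 3, 5 of 9 were negative, with a median of -0.01. Hrc had the smallest unadjusted p of the members there, with a mean log2 change of -0.14 ± 0.06 (SE; edgeR quasi-likelihood test, unadjusted p = 0.0447, adjusted p = 1.00), and 3.7% of all genes had one under 0.05. In the same test the unadjusted p of Hrc was 0.0853 without CDS knockout 3, and 0.00128 without PAS control 3, with an adjusted p of 0.999 without the first and 0.521 without the second.

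Between the controls, no member passed in PAS controls against CDS controls, where 29 genes (0.143%) passed in the edgeR quasi-likelihood test. The line, the litters and the counting run cannot be told apart in this comparison. Of the 9 log2 differences 7 were negative, against 48.7% over all genes, with a median of -0.02, and without PAS control 3 it was 3 of 9. Asph had the smallest unadjusted p: it averaged 206 ± 9.82 CPM in the 3 PAS controls, against 218 ± 2.37 CPM in the 4 CDS controls (SD), a log2 difference of -0.08 ± 0.04 (SE; edgeR quasi-likelihood test, unadjusted p = 0.0423, Benjamini-Hochberg adjusted p = 0.494). PAS control 1, at 217 CPM, lay inside the range of the CDS controls, 215 to 220.0 CPM. Such an unadjusted p was found for 9.6% of all genes.

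Within groups, the members differed widely in their spread. The SD of log2 CPM between replicates, pooled over the groups, was 0.55 for Casq2, 0.22 for Casq1, 0.17 for Pln, 0.13 for Hrc and 0.12 for Trdn, against a median of 0.06 over the 4622 genes with at least 50 CPM. It was 0.09 for Ryr2, also above that median, 0.06 for both Atp2a2 and Slc8a1, and 0.03 for Asph, which was steadier than 4467 of those genes. For Casq2, only 11 of the 4622 genes varied more. The named ones were the globin genes Hbb-bh1, Hba-x, Hba-a2, Hba-a1 and Hbb-y, the red cell anion exchanger Slc4a1, Lars2 and Mir6236, and the other 3 carried no name. Over the 15 libraries the deviations of Casq2 from the group means had a correlation of 0.0388 with those of Hbb-y and -0.688 with those of Hbb-bh1, given as a description.

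Several members deviated together from library to library. Pln and Trdn had a Pearson correlation of 0.904 and a Spearman correlation of 0.929 over the 15 libraries, computed on deviations of log2 CPM from the group mean. Without the 2 libraries farthest from the median of Pln, but with the group means of all libraries kept, the Pearson value was 0.875. It was 0.779 in the CDS line (n = 8) and 0.964 in the PAS line (n = 7). Casq2 and Trdn had 0.852 (Spearman 0.882), with 0.896 within the CDS line and 0.856 within the PAS line. Casq2 and Pln had 0.817 (Spearman 0.861), with 0.519 within the CDS line and 0.934 within the PAS line. A second set held the channel and the pump: Ryr2 and Atp2a2 had 0.871 (Spearman 0.864), and Atp2a2 and Slc8a1 had 0.78 (Spearman 0.746). The sets ran against each other in the PAS line, with -0.878 for Ryr2 and Trdn, whereas in the CDS line that pair had -0.036. Pln and Atp2a2, the inhibitor and its pump, had 0.755 in the CDS line, where CDS knockout 3 was low for both, and -0.784 in the PAS line. These are descriptions of 36 pairs with no test, and genes of 1 library share its dissection, depth and cell makeup.

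The deviations of Casq2 were largest in 4 libraries of the PAS line, and without PAS knockout 2 and PAS control 3 its correlation with Trdn was 0.853. The group means were still those of all libraries, so the 2 left out had a part in that value. Casq2 lay 1.04 and 0.89 above its group mean (log2) in PAS knockout 2 and PAS control 3, where Pln lay 0.25 and 0.16 above and Ryr2 0.10 and 0.11 below. It lay 0.63 and 0.83 below in PAS knockout 1 and PAS control 2, where Pln lay 0.20 and 0.24 below, while Ryr2 lay 0.01 below in PAS knockout 1 and 0.16 above in PAS control 2. Myl7, a myosin light chain that later becomes atrial, went the other way, with 703 and 791 CPM in PAS knockout 2 and PAS control 3 and 1130 and 1209 CPM in PAS knockout 1 and PAS control 2. The sum of 7 atrial markers was 3015 and 3167 CPM in the first pair and 3596 and 3750 CPM in the second. That sum includes Myl7, which held most of the gap, so it is not separate from the values of Myl7. The part of cell makeup was not tested. The cardiomyocyte marker sum differed little among these 4 libraries, at 25926, 25110, 25638 and 25960 CPM. A flat sum does not mean that each marker was flat. Tnnt2 of that list had 4227, 4384, 3471 and 3513 CPM in the same order. Its correlation with Casq2 over the 15 libraries was 0.868, while that of Myh7, also of the list, was 0.153.

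**Figure D4:**
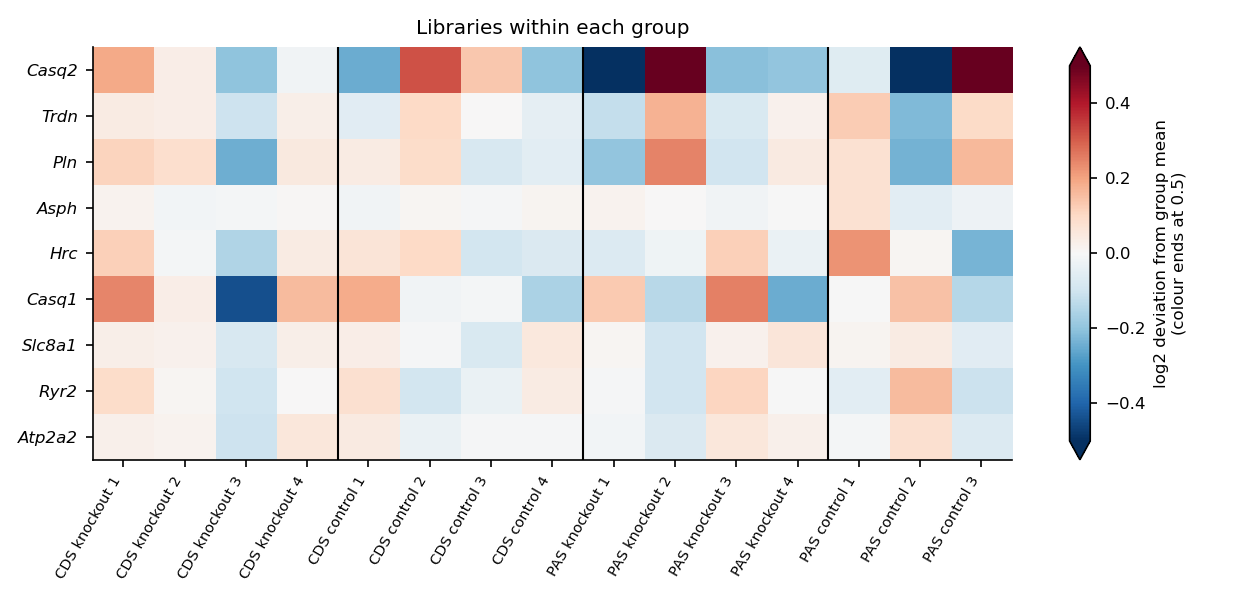
Deviation of log2 CPM from the group mean for 9 members (rows) in 15 libraries (columns), with red above and blue below the mean and the colour scale ending at 0.5 in both directions. Casq2, Trdn and Pln share their colours in most libraries, and CDS knockout 3 lay below its group mean for all 9 genes, though only slightly for Asph.

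The genes nearest to each member in this co-variation were taken from 11331 genes with at least 5 CPM. The nearest to Casq2 were Sept6, a septin gene, with a correlation of 0.991, and Col14a1, a collagen gene, with 0.98. For Pln they were Tnnt2, the cardiac troponin T gene, with 0.962 and Eml5 with 0.95, and for Trdn the nearest was Aplnr, the apelin receptor gene, with 0.95. The nearest to Ryr2 was Asb2 with 0.923. Atp2a2 was nearest to Mmd (0.948) and Mcm3 (0.94), and Slc8a1 to Pdlim5 (0.916) and Canx (0.914). Hrc was nearest to a pair of glycolytic genes, Tpi1 (0.931) and Pgk1 (0.927). Casq1 was nearest to Lmnb2 (0.896) and Lacc1 (0.895), and Asph to Alkbh3 (0.91) and Mad1l1 (0.903). All are Pearson correlations over the 15 libraries, and none was tested.

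The promoters of Casq2 and Pln are shown because these genes varied together. RefSeq promoter windows (GRCm38.p6, 250 bases before to 50 after the annotated start) were at hand for 6 of the 10 members. In the Casq2 window (chr3:102086165-102086464, plus strand) the capitals mark a match to the MEF2 site, the motif of a muscle transcription factor family, from 69 to 60 bases before the start. In the Pln window (chr10:53337436-53337735, plus strand) they mark TATAAA and TTATCT, the reverse complement of the GATA motif AGATAA, starting 219 and 183 bases before the start.
Casq2: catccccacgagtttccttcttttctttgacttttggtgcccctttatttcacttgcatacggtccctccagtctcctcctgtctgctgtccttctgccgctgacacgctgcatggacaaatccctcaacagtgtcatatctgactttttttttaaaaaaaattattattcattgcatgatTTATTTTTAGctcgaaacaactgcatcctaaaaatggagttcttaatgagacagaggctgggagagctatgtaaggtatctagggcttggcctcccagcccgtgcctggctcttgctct
Pln: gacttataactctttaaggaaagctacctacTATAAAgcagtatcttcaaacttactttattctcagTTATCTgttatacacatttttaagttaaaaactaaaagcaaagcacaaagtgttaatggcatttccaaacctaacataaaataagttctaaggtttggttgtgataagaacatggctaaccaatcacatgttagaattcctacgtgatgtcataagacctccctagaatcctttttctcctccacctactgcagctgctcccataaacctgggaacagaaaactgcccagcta
Both strands were searched for 5 motifs, the ATF4 composite site (TGATGNAAN), the MEF2 site, the CArG box, AGATAA and TATAAA. Of all 32851 promoter windows of that length, 3.95% held the ATF4 motif, 1.86% the MEF2 site, 1.63% the CArG box, 11.2% AGATAA and 13.6% TATAAA. None of the 6 members' windows held the ATF4 letters or the CArG box, and Slc8a1 held AGATAA 68 bases before its start. A match here is a run of letters and not a measured binding site.

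No gene of the wider calcium handling machinery was called either. Of 49 further genes in 4 lists, 47 were matched and 45 tested, and none passed in any of the comparisons in the edgeR quasi-likelihood test. Of 45 changes 30 were negative in CDS knockouts and 25 in PAS knockouts, each with a median of -0.01, against 50.6% negative over all genes in each line. The counts of these lists were not repeated without CDS knockout 3. At an unadjusted p under 0.05 stood 1 gene of the 45 for CDS, against 2.62% of all genes (1.28% lower), and 2 for PAS, against 5.24% (2.57% lower). They were chosen by that value: Ppp1r1a, a phosphatase inhibitor gene, with a log2 change of -0.10 ± 0.04 for CDS (SE), Jph2, the gene of the junction protein junctophilin, with -0.11 ± 0.05 for PAS (SE), and Mcu, the mitochondrial uniporter gene, with -0.14 ± 0.06 for PAS (SE).

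In the list of the release unit and its junction, 19 genes were tested, with 14 negative and 5 positive changes for CDS and 10 negative and 9 positive for PAS. Its most abundant genes per kb were Calm2, a calmodulin gene, and Srl, which codes for the store protein sarcalumenin. Calm2 averaged 252 ± 7.45 CPM in the 4 CDS knockouts, against 252 ± 5.53 CPM in the 4 CDS controls (SD). Srl averaged 721 ± 18.8 CPM in the 4 CDS knockouts, against 734 ± 38.2 CPM in the 4 CDS controls (SD). Of the pumps and their regulators 6 of 10 were tested, with 4 negative for CDS and 5 for PAS. Chaperones that bind calcium in the reticulum were its most abundant genes. Calr, the calreticulin gene, averaged 895 ± 51.6 CPM in the 4 CDS knockouts, against 924 ± 7.43 CPM in the 4 CDS controls (SD). Canx, the calnexin gene, averaged 662 ± 37.8 CPM in the 4 CDS knockouts, against 693 ± 19.1 CPM in the 4 CDS controls (SD).

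Among 11 genes of calcium entry and exit at the cell membrane, 6 were negative for CDS and 7 for PAS. The most abundant per kb were Atp2b4, a plasma membrane calcium pump gene, with log2 changes of -0.01 ± 0.07 for CDS and -0.04 ± 0.08 for PAS (SE), and Cacna1h, a T-type channel gene, with 0.09 ± 0.12 for CDS and 0.01 ± 0.13 for PAS (SE). Of 9 genes of IP3 receptors, store-operated entry and mitochondrial uptake, 6 were negative for CDS and 3 for PAS. Itpr1, an IP3 receptor gene, had log2 changes of 0.00 ± 0.04 for CDS and 0.09 ± 0.04 for PAS (SE), and Orai1, a store-operated channel gene, had -0.12 ± 0.08 for CDS and 0.03 ± 0.09 for PAS (SE). None of the 8 genes named passed the test.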

How the data were processed

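Messenger RNA was measured by RNA-seq in 15 ventricle libraries, grouped by their titles. The deposited values are raw fragment counts per gene, made by the authors with featureCounts 2.1.1 in paired-end mode on GENCODE release 37 (GRCm39), per the file headers, which show no strand option. The lines were counted in separate runs. Of the aligners HISAT2 2.2.1 and STAR 2.7.11b, both named with fastp, FastQC and DESeq2 per the submitters' processing notes, the one behind the counts is not given in the sources used here. The labels conflict on extraction and on poly(A) selection or ribosomal depletion. Gene length was taken from the deposited count tables.

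Symbols came by identifier from GENCODE release 21: 51429 genes, holding 98.85% of counts. Erln and Arln were not matched, and Strit1 was matched as Gm34302. edgeR 4.0.16 was used in R 4.3.3, with filterByExpr (minimum count 10, 20269 genes), TMM and a robust quasi-likelihood fit of 1 mean per group over all libraries (11 residual degrees of freedom, biological coefficient of variation 7.44%). Standard errors were derived from the F statistic. Benjamini-Hochberg adjusted p under 0.05 was called. Deviations used log2(CPM + 0.5). The fit was tested on simulated data. The other settings were DESeq2 1.42.0, its size factors, limma-voom (limma 3.58.1), no filter, fits of the compared groups, a replicate block, each library left out, and removal of globin and mitochondrial genes. The design text calls the replicates biological and gives 4 per genotype; only 3 PAS control libraries were analysed here. Marker lists of 13 cell types were summed as CPM.

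The members and lists were chosen with earlier results of these data known. Genes named from the 4 other lists are those called, or else the 2 most abundant per kb, and the nearest genes are the 2 of highest correlation with each member; for Ryr2 and Trdn the second is not reported here. Hbb-y, Hbb-bh1, Myl7, Tnnt2 and Myh7 beside Casq2, Gm47644, Gm17224 and the skeletal isoforms were chosen after their values were seen.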

Additional observations from a re-analysis of the deposited data

Results flagged for a closer look

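The highest and lowest values of the 10 members and Atf4 were compared with their neighbours in each of the 3 groups of 4 libraries, 33 checks in all, and 3 lay apart by Dixon's criterion, which chance alone meets in about 1 group in 20. In PAS knockout 2 Casq2 stood at 196 CPM, with 61.3 to 82.9 CPM in its fellow PAS knockouts. In CDS knockout 3 Slc8a1 stood at 2394 CPM, with 2574 to 2587 CPM in its fellow CDS knockouts. Trdn had 107 CPM in the same library, against 118 CPM in each of the other CDS knockouts.

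Atf4 changed in opposite directions under the labels of the lines. The CDS change minus the PAS change was a log2 value of -2.92 ± 0.08 (SE), with an adjusted p of 3.88e-17 in the edgeR quasi-likelihood test of the difference. No member differed in that test.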

How the results depend on the processing

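No member passed in any comparison under any of the settings tried, 113 counts of called members in all, and the smallest adjusted p of a member was 0.315. Of 1017 alternative values of member changes 68 had the other sign, at most 0.48 in size. The counts of called genes in the main analysis were 11 (CDS), 2 (PAS), 1 (difference), 16 (mean of both changes) and 29 (controls). With no filter they were 31, 7, 3, 28 and 201, and with DESeq2 20 (CDS), 7 (PAS), 2 (difference) and 101 (controls). limma-voom gave 2 for the difference, and fits of the compared groups alone gave 1 (PAS) and 10 (controls). Leaving out each library gave 10 to 14 (CDS), 2 to 3 (PAS), 1 to 2 (difference), 11 to 16 (mean of both changes) and 11 to 43 (controls); the difference count was 2 without CDS knockout 4 or PAS knockout 4, and the control count was 11 without PAS control 1. Without CDS knockouts 3 and 4, chosen after seeing the data, the mean of both changes gave 10. The causes were not tested. Same-numbered libraries had correlations of deviations from -0.322 to 0.201, so the numbers were not taken to pair them, and the replicate block gave 12, 2, 1, 12 and 23 called genes. Among the members, with 3 or 4 libraries a group, Sln alone had too few counts to pass the filter. Replicate spread was largest for Casq2, with an SD of 0.55 (log2), followed by Casq1 at 0.22 and Pln at 0.17. What limited each member was not tested.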

Other observations

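Beyond the nearest genes, Casq2 had strong opposites among the 4622 genes with at least 50 CPM, chosen after their values were seen. Arid3b had a correlation of -0.972 with Casq2 over the 15 libraries on deviations from the group means, and Myl7 had -0.965. Hmga2 and Igf2bp2, which code for proteins known to be abundant in the embryo and to decline later, had -0.941 each. Hmga2 had 155 CPM in PAS knockout 2 and 153 CPM in PAS control 3, where Casq2 was highest, and 263 CPM in PAS control 2, where Casq2 was lowest. Tnnt1, the slow skeletal troponin T gene, ran with Casq2 at 0.95. No test was made.

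In the CDS knockouts, the log2 change was negative for all 8 cardiomyocyte, all 4 ventricular, all 7 endothelial, all 4 smooth muscle and all 4 epicardial markers, and positive for all 5 cushion mesenchyme and all 4 neuronal markers, with none passing the edgeR quasi-likelihood test. At an unadjusted p under 0.05 were 2 cardiomyocyte, 1 ventricular and 4 endothelial markers, all lower, and no gene of the other lists just named, against 2.62% of all genes (1.28% lower). No gene of the 13 marker lists was called in either knockout comparison. Neuronal markers summed to 42.0 CPM in CDS knockout 3 and to 29.4 to 33.0 CPM in the other CDS knockouts. Cushion markers summed to 3290 CPM there, against 2759 to 3036 CPM in the others. In CDS controls the sums were 24.4 to 32.6 CPM and 2520 to 3058 CPM. The smooth muscle sum was 1121 CPM in CDS knockout 3, against 1464 to 1626 CPM. Its epicardial sum, 289 CPM, lay inside the range of the other CDS knockouts. These signs were not counted again without that library. The 2 liver and yolk sac markers tested were positive in the CDS knockouts, at 0.85 and 1.52, with 1 of them at an unadjusted p under 0.05. In the PAS knockouts 5 of 8 cardiomyocyte, 2 of 4 ventricular, 1 of 7 endothelial, 4 of 4 smooth muscle, 1 of 4 epicardial, 5 of 5 cushion and 3 of 4 neuronal markers were negative. All 5 erythroid markers were negative there too, from -0.71 to -0.47 with a median of -0.57, and none had an unadjusted p under 0.05 in the edgeR test.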
